A study of Gallus gallus with 2 samples.

Results

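The ID proteins and the E proteins they bind were followed as 7 genes, ID1, ID2, ID3, ID4, TCF3, TCF4 and TCF12, in chicken DT40 B cells with and without PTIP. Every probe set whose platform gene symbol is one of these names was taken, which gave 17 of the 38439 probe sets that are not manufacturer's controls, and 7 of the 13009 genes on the array. All 7 symbols were found in RefSeq's GRCg7b annotation under the same Entrez identifier. DT40 is an established line from the bursa of Fabricius, the organ in which birds make B cells. One group was a wild-type clone and the other a PTIP deficient clone, written PTIP-/-/- in the labels, so each genotype rests on 1 clone and 1 array, 2 arrays in all. PTIP, encoded by PAXIP1, carries BRCT domains, takes part in DNA damage signalling and belongs to a complex that methylates histone H3. Total RNA from both cultures, which were grown at the same temperature, was hybridised to Affymetrix chicken genome arrays with a single label.

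E proteins are transcription factors of the basic helix-loop-helix family that bind DNA as dimers at short sites called E-boxes. ID proteins have the helix-loop-helix through which such factors pair but no basic region, so a dimer that holds an ID protein does not bind DNA. In mammals the E proteins drive B lineage genes, and forced expression of ID proteins blocks B cell development. ID genes are classical targets of bone morphogenetic protein (BMP) signalling through SMAD factors.

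Values are the deposited linear signal intensities. A signal of 31.0 or more, the value at percentile 40 of all non-control signals, counts as measured, and 31.0 is called the floor. It is no test of background: probe sets for reporter sequences reached 131.5, outside 1 bright one at 2675. That one was left out, and 131.5 is called the highest reporter signal below. A fold difference with 1 signal under 131.5 is therefore given as a bound of the brighter signal against 131.5, and no fold is given where both are under it. Ratios are log2 of PTIP deficient over wild-type, and the main value of a gene is that of its brightest probe set by mean log2 signal. With 1 array per genotype no test exists and none of the differences has a replicate check. The only measure of error is the disagreement between probe sets of the same gene, an SD of 0.36 on the log2 scale per probe set over 4284 genes, which leaves out the spread between cultures, clones and hybridisations.

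Both arrays had been scaled to the same mean, 499.9 between percentiles 2 and 98, and 59.6% and 60.4% of probe sets reached the floor in wild-type and PTIP deficient cells. Transcripts added to the hybridisations as controls were nevertheless higher in the PTIP deficient array, by a median log2 ratio of 0.30, in 27 of 27 probe sets. These are repeat probe sets of a few transcripts, so the 27 do not count as separate controls. The only PAXIP1 probe set over the floor read 1045 in the wild-type and 593 in the PTIP deficient array. Where it lies relative to the disrupted exons is not stated in the labels, so it does not check the genotype.

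Signals of ID2 and ID3 were higher in PTIP deficient cells, that of TCF4 was lower, and those of TCF3 and TCF12 were higher by less than 2-fold. Among the 6 members measured in both arrays, ID2 and ID3 were past 2-fold upward and TCF4 past 2-fold downward, so 2 up and 1 down. The shares over all 9165 genes measured in both were 5.03% up and 4.46% down. Counted with bounds against 131.5 in place of the floor, the same 3 of 6 members were past 2-fold, where 3.69% of 7370 genes were up and 3.87% down. Of the members' 13 probe sets measured in both arrays, 11 were higher and 2 lower in PTIP deficient cells, and the 2 lower ones both belonged to TCF4. Of the 11 higher ones, 7 were repeat probe sets of TCF3 and TCF12, each within 2-fold, so the 13 do not count as separate genes. A further 3 probe sets were measured in 1 array and 1 in neither. Of the 16 with a ratio, bounds against the floor included, 5 were past 2-fold in either direction, against 11.8% of all probe sets. The 5 all belonged to ID2, ID3 and TCF4. With the highest reporter signal as floor, 4 of the members' 17 probe sets and 1088 of all 38439 were past 2-fold. Both totals include probe sets without a ratio. The median log2 ratio was 0.61 over the 6 genes and 0.03 over all genes.

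**Figure D1:**
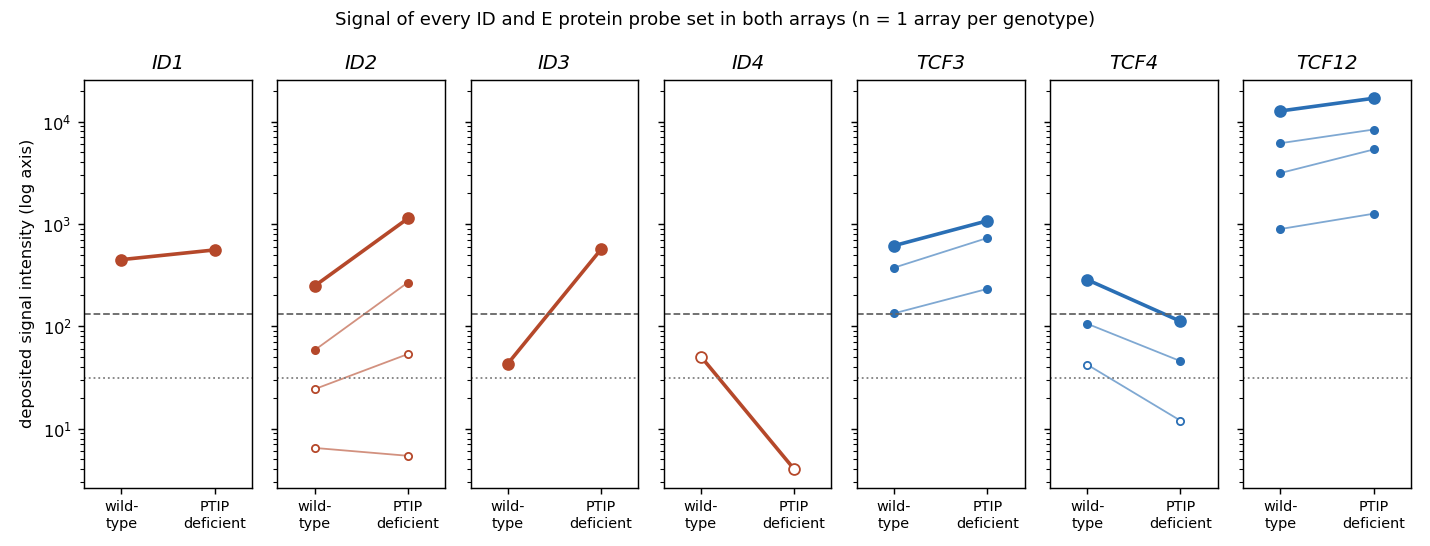
Deposited signal of every probe set of the 7 genes (log axis) in the wild-type and the PTIP deficient array, 1 array each. Thick lines mark the probe set used for the gene and filled points those measured in both arrays. The dotted line is the floor of 31.0 and the dashed line the highest reporter signal of 131.5, with 1 bright reporter probe set left out. ID3 crosses the dashed line upward and TCF4 downward, and all 4 probe sets of TCF12 lie above it in both arrays.

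Among the inhibitors, ID3 and ID2 were past 2-fold, and their order is not settled. The single probe set of ID3 gave 43.1 in wild-type cells and 564 without PTIP. The wild-type signal was within the range of reporter probe sets and the PTIP deficient signal well above it, so that ID3 was at least 4.28-fold higher. With the deposited values the log2 ratio was 3.71, the 11th highest of the 9165 genes measured in both arrays, a place that rests on the dim wild-type signal. No second probe set of ID3 is on the array to repeat this value.

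ID2 had signals of 248 in wild-type cells and 1129 without PTIP with its brightest probe set. Both lie above 131.5, which makes ID2 the member with the largest difference that is not a bound, 4.56-fold higher, with a log2 ratio of 2.19. A second probe set, at 58.4 and 267, had the same direction, and with its wild-type signal under 131.5 it gives only a bound of at least 2.03-fold. Another probe set was measured in PTIP deficient cells alone, at 53.4 against 24.3, and the last did not reach the floor in either array, at 6.47 and 5.42. ID2 ranked 54th from the highest of the 9165 genes.

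ID1 had signals of 448 and 557 with its only probe set, a log2 ratio of 0.32 or 1.24-fold, which is 0.88 times the SD per probe set. With both arrays scaled to the hybridisation controls its log2 ratio was -0.0030, where the median of all genes was -0.28. This scaling shifts all ratios alike, so the distance of ID1 to that median is kept by construction and is no check. Since its difference is within the SD per probe set, no direction is given for ID1. The signal of ID4 was 50.5 in wild-type cells and 4.01 without PTIP. Both are under the highest reporter signal, and the array gives no usable difference for ID4. The 4 ID genes therefore did not show one shared pattern: 2 were past 2-fold upward, 1 was within the probe set error and 1 was too dim to read.

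Of the E proteins, TCF4, which encodes E2-2, was the only one with lower signals in PTIP deficient cells. Its brightest probe set had 285 in wild-type cells and 112 without PTIP, a log2 ratio of -1.35 and at least 2.16-fold lower. The other 2, at 106 and 45.6 and at 42.1 and 12.0, had lower signals in the PTIP deficient array as well, but both of their signals were under 131.5 and they give no usable difference. The value for TCF4 thus rests on 1 probe set. With the deposited values it ranked 227th from the lowest of 9165 genes, a place that rests on the dim PTIP deficient signal. TCF4 is also an older name of TCF7L2, a Wnt pathway factor that is no E protein. The probe sets annotated to TCF7L2 were counted separately, and the only one measured in both arrays had signals of 129 and 199.

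TCF3, which encodes the E2A proteins E12 and E47, had 3 probe sets, and all were higher in PTIP deficient cells. Their signals were 613 and 1071, 374 and 728, and 134 and 232 in wild-type and PTIP deficient cells. The log2 ratios were 0.81, 0.96 and 0.79, or 1.75-fold, 1.95-fold and 1.73-fold, and the first is 2.26 times the SD per probe set. Every one of these 6 signals was above 131.5, and none of the 3 ratios reached 2-fold. TCF3 ranked 686th from the highest.

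TCF12, which encodes HEB, had 4 probe sets, all higher in PTIP deficient cells. The brightest had 12684 in wild-type cells and 16879 without PTIP, a log2 ratio of 0.41, which is 1.16 times the SD per probe set. The other 3 had signals of 6146 and 8356, 3141 and 5333, and 891 and 1258. Their log2 ratios were 0.44, 0.76 and 0.50, so that the 4 probe sets ranged over 0.35. The brightest is an _s_at probe set, a design that may also bind similar transcripts, and without such probe sets TCF12 stood at 0.44. Scaled to the hybridisation controls, which moved the median of all genes to -0.28, the log2 ratio was 0.49 for TCF3 and 0.09 for TCF12. As for ID1, the distance of TCF12 to that median is kept by this scaling and is no check.

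**Figure D2:**
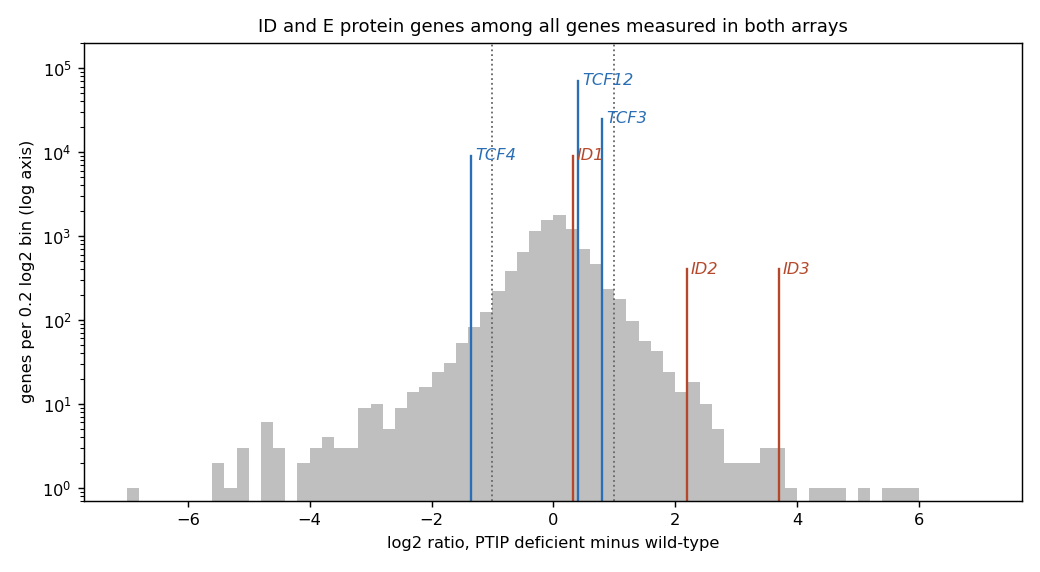
Number of genes per bin of 0.2 (log axis) by log2 ratio, PTIP deficient minus wild-type, for the 9165 genes measured in both arrays, with the 6 measured ID and E protein genes as lines. Dotted lines mark 2-fold. ID2 (2.19) and ID3 (3.71) lie in the upper tail, TCF4 (-1.35) lies past 2-fold on the lower side, and ID1, TCF12 and TCF3 lie inside 2-fold. Line heights carry no value.

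The pairs of signals most like those of each member past 2-fold were sought over all genes measured in both arrays, as the distance on the log2 scale over the 2 arrays. For ID2 the nearest were TMEM82 (258 and 1024 in wild-type and PTIP deficient cells) and RAB36 (258 and 1272). For ID3 they were LOC422926 (61.9 and 718) and CAMKK1 (64.9 and 678), and for TCF4 PARVG (288 and 113) and MITF (279 and 112). Over 2 arrays such likeness means only similar signals.

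The members lie on 7 different chromosomes, and the other genes of those chromosomes were read beside them. ID1 is on chromosome 20, where the median log2 ratio of the 217 other measured genes was 0.37 and 170 of them were above 0. At 0.32, ID1 lay next to the median of its chromosome. TCF4 is on chromosome Z, where 408 other genes had a median of -0.16, 137 were above 0, and 27 were at least 2-fold lower. TCF4 at -1.35 was well below that median. ID2 on chromosome 3 and ID3 on chromosome 23 stood among genes with medians of -0.03 and -0.02. For TCF3 on chromosome 28 and TCF12 on chromosome 10 the medians were 0.03 and 0.05. ID4 is on chromosome 2, at a median of 0.01.

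**Figure D3:**
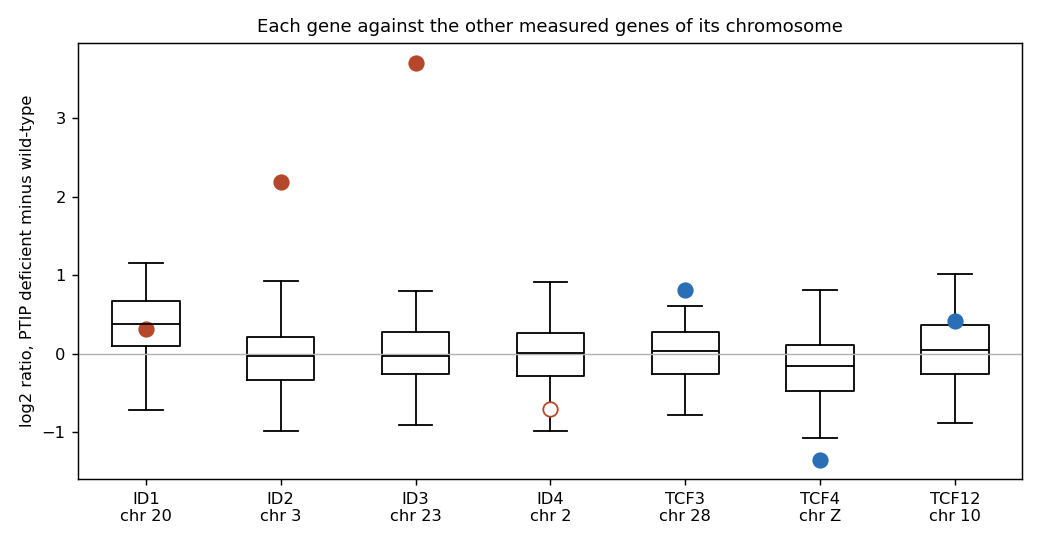
Log2 ratio, PTIP deficient minus wild-type, of each member (point) beside the other genes of its chromosome measured in both arrays (box: quartiles and median; whiskers: percentiles 5 and 95). ID1 sits at the raised median of chromosome 20 (0.37), whereas ID2, ID3 and TCF3 lie above the upper whisker and TCF4 below the lower one. The open point of ID4 is a bound against the floor, from signals under 131.5.

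Genes listed as targets of E proteins in B cells, mostly from work in mice, had mostly lower signals in PTIP deficient cells, many by less than 2-fold. Of the 22 listed targets with a ratio, bounds against the floor included, 0 were at least 2-fold higher, 7 at least 2-fold lower and 15 within 2-fold. Over all genes by the same rule, 6.16% were at least 2-fold higher and 5.46% lower. The median log2 ratio was -0.46 over the 18 targets measured in both arrays, 16 of which were below 0, against 0.03 for all genes. It stayed below 0 under all 9 alternative settings, from -0.78 to -0.42. The 16 include values near 0, such as RUNX1 (-0.02) and IRF8 (-0.05), and RAG2 and LEF1, which were under 131.5 in both arrays. The list shares 6 of its 23 genes on the array with the 14 B cell markers on the array. The markers were lower too (median -0.63 over 13 genes, 4 at least 2-fold lower and 0 higher), partly from the same values. Of these 4, CD79B, POU2AF1 and BCL6 are in both lists and only CD72 is not. Without _s_at and _x_at probe sets, 5 targets in place of 7 and 2 B cell markers in place of 4 were at least 2-fold apart. The lowest B cell marker, the co-receptor CD72, had 2951 and 87.4 and was at least 22.4-fold lower. Targets of E proteins and B cell genes in general therefore cannot be told apart here.

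Among these targets, IRF4, a transcription factor of activated B cells and plasma cells, had 4312 in wild-type cells and 256 without PTIP with its only probe set. IGLL1, annotated as an immunoglobulin light chain gene, had 29961 and 3619, and its measured probe sets spread from -4.23 to -0.30 on the log2 scale. POU2AF1, a coactivator of octamer factors at immunoglobulin promoters, had 8186 and 1943. These 3 were the lowest of the list, at log2 ratios of -4.07, -3.05 and -2.08. CD79B, a signalling chain of the B cell receptor, followed with 9437 and 3732, a 2.53-fold lower signal. BCL6, the repressor of germinal centre B cells, had 329 and 139 and was 2.36-fold lower, with log2 ratios of -1.24 and -1.31 for its probe sets. FOXO1, which acts with E2A and EBF1 in early B cells of mice, had 1020 and 499 and was 2.05-fold lower. S1PR1, a receptor for lymphocyte egress, was the seventh, with 89.6 and 30.5, both under the highest reporter signal.

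Lineage factors placed in the same network differed less. EBF1 had 1095 in wild-type cells and 707 without PTIP, a log2 ratio of -0.63. IKZF1, which encodes Ikaros, had 2732 and 1425, a log2 ratio of -0.94. The antigen receptor recombinase genes RAG1 (9.38 and 49.5) and RAG2 (54.7 and 39.3) were under 131.5 in both arrays, as was PAX5 (96.7 and 122). CXCR4, a chemokine receptor, had the highest ratio among targets measured in both arrays, with 1847 and 2934 and a log2 ratio of 0.67. The cell cycle genes CDK6 and CCND3 had log2 ratios of -0.36 and -0.16.

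E protein cofactors and co-repressors were spread around 0, with a median of 0.0040 over 10 genes measured in both arrays, whose sign turned under other scalings. Of the 16 with a ratio, 3 were at least 2-fold higher, 1 at least 2-fold lower and 12 within 2-fold. All genes by the same rule gave 6.16% higher and 5.46% lower. LMO4, a LIM-only adaptor protein, was the one with both signals above 131.5, at 1748 in wild-type cells and 5430 without PTIP. It was 3.11-fold higher, and its other probe set gave a log2 ratio of 1.27 against 1.64. KAT2B, an acetyltransferase, was at least 1.24-fold higher (24.4 and 163), and LDB1 (28.5 and 121) was under 131.5 in both arrays. The coactivator EP300 had 747 and 661, a log2 ratio of -0.17. The ETO-family co-repressors RUNX1T1 and CBFA2T2, which bind E proteins in mammals, had 185 and 125, and 68.3 and 112, with 1 signal of RUNX1T1 and both of CBFA2T2 under 131.5. SKP2, a ubiquitin ligase subunit, had 3317 and 2465, a log2 ratio of -0.43. The 1 cofactor past 2-fold downward was CREBBP, at 62.4 and 6.92, both under 131.5. With the floor at percentile 60 or at the highest reporter signal, 1 cofactor in place of 4 was past 2-fold.

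Of the tissue-restricted helix-loop-helix factors that pair with E proteins, 14 of 32 on the array reached the floor in neither sample. Among the 18 with a ratio, 3 were at least 2-fold higher, 3 at least 2-fold lower and 12 within 2-fold, where all genes gave 6.16% and 5.46%. These 6 depend on the floor: 11 were past 2-fold with it at percentile 20, 2 at percentile 60 and 1 at the highest reporter signal. NEUROD6, a neuronal factor, stood out with 3371 in wild-type cells and 73.2 without PTIP and was at least 25.6-fold lower. No second probe set of NEUROD6 is on the array to repeat this. Its relative NEUROD1 had 178 and 37.4 and was at least 1.35-fold lower, and HAND2, a factor of heart and limb, had 78.9 and 200 and was at least 1.52-fold higher. BHLHA9 (37.4 and 83.7), TCF15 (30.9 and 67.0) and ATOH1 (63.6 and 2.23), the other 3 past 2-fold, were under 131.5 in both arrays. TAL1, the partner of E proteins in blood stem and erythroid cells, had 53.5 and 70.8, both under 131.5. MYOD1 was under the floor at 13.2 and 6.14.

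Regulators of ID genes in the BMP, TGF-beta and EGR pathways went both ways. Of 29 with a ratio, 19 were within 2-fold, 5 were past it upward and 5 downward, where all genes gave 6.16% and 5.46%. In place of these 10, the count was 4 with the floor at percentile 60 and 2 at the highest reporter signal. The median was -0.03 over 23 genes measured in both arrays, and its sign depended on the setting. BMP7, a BMP ligand, had 313 in wild-type cells and 2156 without PTIP and was 6.88-fold higher, its measured probe sets giving log2 ratios of 1.94 to 2.78. TGFBR1, the type I receptor of TGF-beta, had 2851 and 894 with its only probe set and was 3.19-fold lower. The receptor genes BMPR1A (39.1 and 38.3) and BMPR2 (73.9 and 50.8) and the BMP-responsive SMAD1 (75.3 and 112) were under 131.5 in both arrays. Other receptor genes of the list, ACVR1 (10109 and 10502) and ACVR2A (2286 and 2000), were above 131.5 in both arrays and within 2-fold. ACVR2B was under the floor at 4.44 and 28.1. SMAD5, another BMP-responsive factor, had 577 and 386, but its 2 probe sets differed in sign, at -0.58 and 0.63. SMAD6, an inhibitor that BMP signalling itself induces, had 947 and 712, a log2 ratio of -0.41, and SMAD7 was under 131.5 at 94.5 and 92.5. EGR1, an inducer of ID3 in lymphocytes of mice, had 43.2 and 98.6, both under 131.5. SMAD3, a TGF-beta-responsive factor, had 109 and 217 and was at least 1.65-fold higher. The other genes of this list past 2-fold were under 131.5 in both arrays, BMP4 (15.6 and 87.9) and ATF3 (25.8 and 73.3) upward and TGFB2 (80.9 and 25.8), the BMP receptor gene BMPR1B and NOG (65.0 and 18.5) downward. SKIL, a SMAD co-repressor, had 238 and 109 and was at least 1.81-fold lower, with probe sets of both signs.

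**Figure D4:**
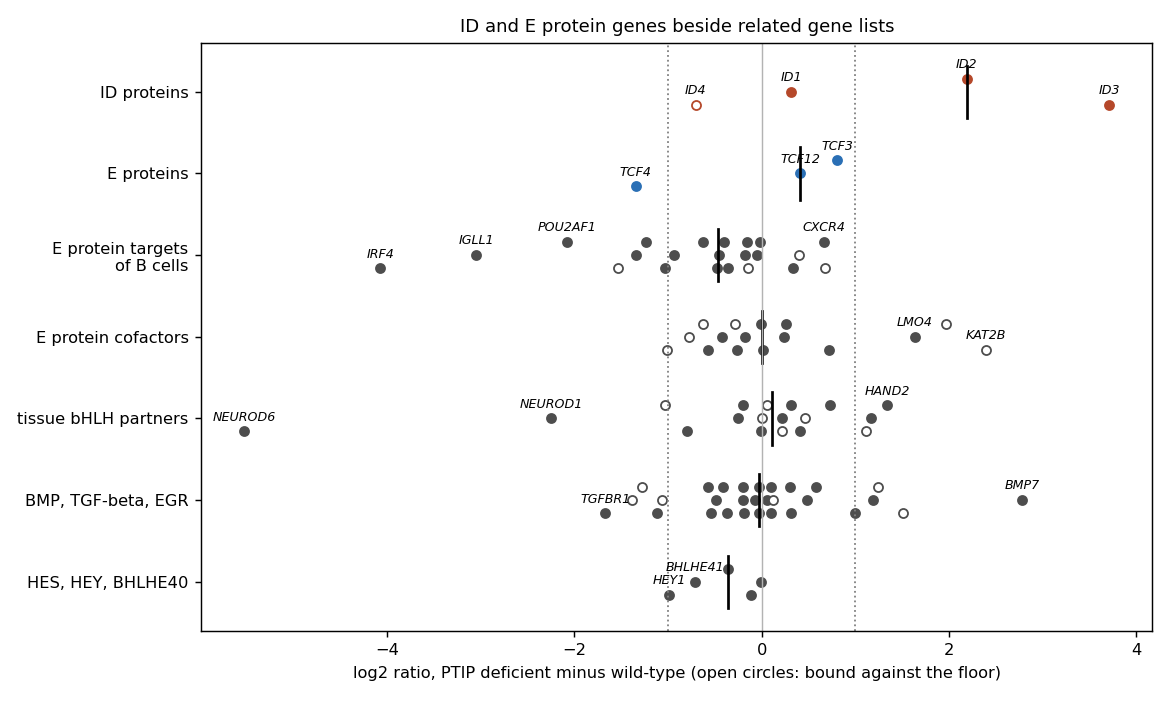
Log2 ratio, PTIP deficient minus wild-type, of each gene with at least 1 signal at the floor or above, by list. Filled points were measured in both arrays, open points are bounds against the floor of 31.0, vertical bars are medians of the filled points and dotted lines mark 2-fold. ID2 and ID3 lie to the right, and the targets of E proteins lie mostly to the left, IRF4 (-4.07) farthest.

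The repressors of the HES, HEY and BHLHE40 group are helix-loop-helix factors of another class. Of the 5 with a ratio, 0 were at least 2-fold apart, where all genes gave 6.16% higher and 5.46% lower. With the brightest probe set of each gene and the values as deposited, all 5 log2 ratios were below 0, with a median of -0.36. HEY1, a Notch target, had 288 in wild-type cells and 146 without PTIP, a log2 ratio of -0.99, and BHLHE41 had 659 and 401, a log2 ratio of -0.72. HEY2 had 180 and 140, BHLHE40 had 884 and 814 and HES4 had 145 and 143. The log2 ratios of BHLHE40 and HES4, -0.12 and -0.01, were inside the SD of 0.36 per probe set. The measured probe sets of BHLHE40 differed in sign, from -0.12 to 0.21. With loess 1 gene of this group was past 2-fold, and with scaling to the hybridisation controls 2.

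Markers of other cells were read beside these values, since ID2 and ID3 are also expressed outside the B lineage. Each sample is bulk RNA from 1 clone of a B cell line, and in bulk RNA a marker's signal does not tell how many cells hold it. T cell markers had a median log2 ratio of 0.85 over 7 genes measured in both arrays and of 0.21 over the 10 with a ratio, and it was 0.21 too with the floor at percentile 20. Of the 10, 3 were at least 2-fold higher and 0 lower, where all genes gave 6.16% and 5.46%. The 3 were CD8A, at 78.2 and 563 in wild-type and PTIP deficient cells, CD5, at 73.3 and 303, and CD8BP, at 71.2 and 189. CD3D, at 8831 and 15919, was within 2-fold, and THEMIS and GATA3 were under 131.5 in both arrays. The summed signal of the 14 T cell markers on the array was 9686 and 17697, CD3D giving 8831 and 15919 of that. CD4, CD28, LCK and TRAT1, which mark T cells, lay between 1.89 and 8.54 in both arrays, and CD3E was at 46.5 and 45.5. Of 9 mesenchymal markers with a ratio, 3 were at least 2-fold higher and 0 lower. Their median was 0.08 over 7 genes measured in both arrays, 4 above and 3 below 0, and the 14 on the array summed to 4640 and 13860, VIM giving 4028 and 12190 of that. COL1A1 had 65.7 and 206, FN1 had 147 and 118, and PDGFRA (56.0 and 32.1) and TAGLN (47.3 and 8.99) were under 131.5 in both arrays. LUM, a proteoglycan of connective tissue, had 6.18 and 1019 with its only probe set and was at least 7.75-fold higher. Of 8 macrophage and granulocyte markers with a ratio, 0 were at least 2-fold higher and 3 lower, the 11 on the array summing to 3561 and 1764. The 3 were SPI1 (2968 and 1429), which B cells also express, CYBB (225 and 38.1) and MMP9 (79.3 and 18.2), and MARCO, CSF1R and S100A12 were under 131.5 in both arrays. Of the erythroid and thrombocyte markers, 0 of 6 with a ratio were at least 2-fold apart. One of them was ALAS1 (2179 and 1395), taken in through a synonym of ALAS2 and expressed in most cells, and without it the 6 on the array summed to 392 and 408. ITGB3 had 200 and 214, and HBA1, HBZ and HBAD were under 131.5 in both arrays. Against the counts given, the floor at percentile 20 put 5 mesenchymal, 5 macrophage and granulocyte and 3 erythroid and thrombocyte markers past 2-fold, whereas the floor at the highest reporter signal left 1 macrophage and granulocyte marker past it. The part of such markers in the values of ID2 and ID3 was not tested.

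**Figure D5:**
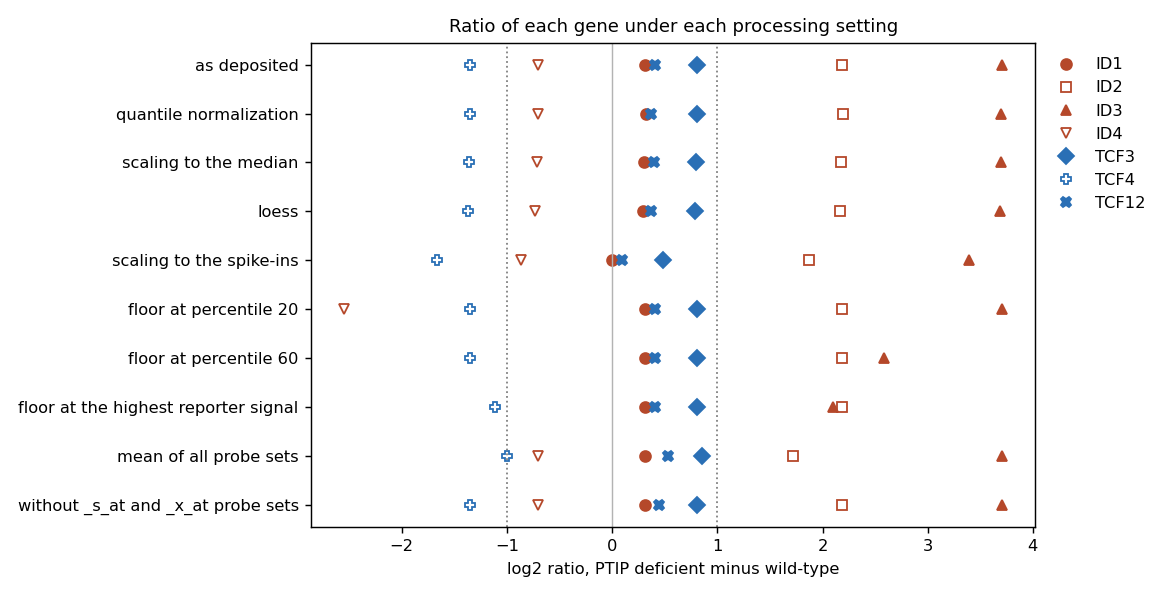
Log2 ratio, PTIP deficient minus wild-type, of each of the 7 genes under the values as deposited and 9 alternative settings, with dotted lines at 2-fold. ID2 and ID3 stay right of 2-fold in every setting, while ID3 moves from 3.71 to 2.10 as the floor is raised to the highest reporter signal. Some settings cannot change the value of a given gene. TCF4 stays left of 2-fold, but only barely with the mean of all probe sets (-1.001). ID1 reaches 0 under scaling to the hybridisation controls, and ID4 has no value where both its signals lie under the floor.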

How the data were processed

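Gene expression was measured on 2 Affymetrix chicken arrays, 1 per genotype. The authors deposited signal intensities on a linear scale, made from the scans with GCOS, per the submitters' processing notes. The GCOS version and settings are not given in the sources used. No further scaling was applied. The 96 control probe sets were left out. Genes came from the platform annotation, in which 27178 probe sets had 1 symbol, 177 had several and 11180 none, and 26863 matched GRCg7b RefSeq by Entrez identifier; only names, chromosomes and gene order were taken from RefSeq. List symbols absent from the array were matched through a unique RefSeq synonym.

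Ratios were floored at the signal floor, so that a gene with 1 signal under it counts at its bound, and 2-fold was the bar. No test was possible, and the number of arrays limits the precision. Detection calls were not used here. The members, the 10 related lists, the floor and the reporter bound were chosen with earlier results of these data known, so a list's direction is no independent evidence. Named were PAXIP1, all members, and of each list up to 4 genes with the largest ratios and 2 with the largest bounds; other genes were chosen after their values were seen, for their role. The calculation was tested on simulated data. Promoter motifs and protein sequences were not analysed here. Python 3.11.15, pandas 2.3.3, NumPy 2.4.6 and statsmodels 0.14.6 (loess) were used.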

Additional observations from a re-analysis of the deposited data

How the results depend on the processing

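Over 9 alternatives (4 scalings, 3 floors, the mean of all probe sets, and no _s_at or _x_at probe sets), 2 members were at least 2-fold higher in every one, and 1 was at least 2-fold lower in every one except the floor at percentile 20, where 2 were. There ID4 stood at -2.55, from signals within the reporter range, and 8 instead of 5 of the 17 member probe sets were at least 2-fold apart. Not every alternative could change every member. The 3 floors lie under both signals of the brightest ID2 probe set. ID3 has a single probe set, so neither probe set rule could change it. The alternatives are therefore not 9 separate checks. The log2 ratio of ID3 was 2.58 with the floor at percentile 60 and 2.10 with the reporter signal as floor, since its wild-type signal is then replaced by the floor. Averaging all probe sets, which takes in a dim one, gave 1.72 for ID2. TCF4 ranged from -1.67 to -1.001 over the 9. The value of -1.001, with the mean of all probe sets, was barely past 2-fold. TCF3 ranged from 0.49 to 0.85. Counts over all genes followed the floor: 658 were higher and 583 lower as reported, 1320 and 1197 with it at percentile 20, 333 and 335 at percentile 60, and 272 and 285 at the highest reporter signal; scaling to the hybridisation controls gave 370 and 1039. Of all 38439 probe sets, with or without a ratio, 3053 were at least 2-fold apart as reported, and 8643, 1347 and 1088 with those 3 floors. Of 179 values of the related lists under the alternatives, 21 moved. These values are counts in either direction and medians that were within 2-fold as reported, so none could reverse a difference of 2-fold or more. Some medians took both signs, as for the tissue-restricted partners (-0.50 to 0.32), the cofactors (-0.30 to 0.13) and the BMP, TGF-beta and EGR list (-0.35 to 0.06). Those of the erythroid and thrombocyte (-0.34 to 0.08) and mesenchymal markers (-0.23 to 0.84) did so too. No paired analysis was possible because each genotype has 1 array, and for the same reason no replicate could be left out.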

Other observations

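Genes next to the members on the chromosome, in RefSeq order and among those measured in both arrays, were read as well. On both sides of ID2, RPS7 and SOX11 had log2 ratios of 0.00 and -0.95 and KIDINS220 and MBOAT2 -0.03 and 0.11. The nearest measured gene before ID3 in that order was ASAP3, with 132 in wild-type cells and 587 without PTIP, a log2 ratio of 2.15, while RCC1 before it and YTHDF2 after ID3 had -0.59 and 0.12. Before ID4, MBOAT1 had 160 and 638, although ID4 itself could not be read. After TCF4, NARS and FECH had -0.01 and -0.23.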
